A study of Mus musculus with 8 samples.

Results

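Sox11, Klf6, Klf7, Klf4, Klf9, Smad1, Stat3, Socs3, Myc and Cebpd are 10 genes that set how far an injured neuron can regrow its axon and that lie outside the AP-1 family. They were taken by gene name from a table of 21761 genes, and all 10 were found. Their ribosome-associated RNA was compared between 4 libraries from mice given MPTP and 4 libraries from mice given saline. MPTP is a neurotoxin that is converted in the brain to a compound taken up by dopaminergic neurons, where it blocks mitochondrial respiration. The MPTP mice received MPTP-HCl by intraperitoneal injection on each of 5 days, at 30 mg per kg counted as free base. The saline mice received saline by the same route on the same schedule. In both groups the strain was C57BL/6, and RNA was collected from midbrain dopaminergic neurons 4 days after the last injection by translating ribosome affinity purification (TRAP), in which tagged ribosomes are pulled down with the RNA they carry. The labels state neither the age nor the sex of the mice, nor the promoter behind the ribosome tag, nor how many animals made up a library.

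Most of these genes are transcription factors known from peripheral sensory neurons and retinal ganglion cells, where their RNA or activity changes after the axon is cut. SOX11, KLF6, KLF7, SMAD1, STAT3, MYC and C/EBP-delta act in favour of axon growth, whereas KLF4 and KLF9 hold it back. SOCS3 is not a transcription factor: it is an inhibitor that STAT3 itself induces and that shuts off cytokine signalling through the gp130 receptor. The comparison asks which of these genes differed in their ribosome-bound RNA after MPTP.

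Library totals lay between 54192354 and 78892061 counts. All 16 dopaminergic marker genes listed for the check of identity were detected, and their summed level was 10266 to 12206 CPM (counts scaled to 1e+06 per library) in MPTP libraries and 9246 to 15204 CPM in saline libraries. Markers of other cells were present at lower levels, and none was at 0 in all libraries. The summed level of 16 astrocyte markers was 729 to 802 CPM in MPTP and 617 to 850 CPM in saline, that of 15 oligodendrocyte markers 1313 to 1534 CPM in MPTP and 914 to 1932 CPM in saline, that of 16 microglia markers 68.7 to 79.3 CPM in MPTP and 56.7 to 72.8 CPM in saline, and that of 15 endothelial and mural markers 17.7 to 27.0 CPM in MPTP and 14.97 to 34.1 CPM in saline. Their part in the results was not tested. A fit with the mean log2 level of these non-neuronal markers as a covariate is given for Sox11, Klf6 and Zbtb16. Its calls are also given over the pathway lists. The fit cannot separate the part of these markers from that of MPTP, because this level nearly followed the groups. The level was 2.63 to 2.97 in MPTP, 2.10 to 2.52 in saline 1, 2 and 4, and 3.09 in saline 3. Saline 3 had the highest astrocyte, oligodendrocyte and endothelial sums of all 8 libraries and the lowest dopaminergic sum, and the overlap of the groups in the astrocyte, oligodendrocyte and dopaminergic sums came from saline 3 alone. The other 3 saline libraries had dopaminergic sums of 14142 to 15204 CPM, above every MPTP library, and astrocyte sums of 617 to 662 CPM and oligodendrocyte sums of 914 to 1100 CPM, below every MPTP library. With all 8 libraries 0 markers of any list passed in edgeR, while DESeq2 called the microglia marker Cd68. Without saline 3, edgeR called 4 of 16 astrocyte, 6 of 15 oligodendrocyte and 2 of 16 microglia markers as higher in MPTP and 3 of 16 dopaminergic markers (Ddc, Aldh1a1 and Slc6a3) as lower. In that setting 1.84% of all genes tested were called. For genes of the pathway lists named in the text, a call that differs without saline 3 is stated. In pulled-down RNA of this kind, a change in cell number, in RNA per cell or in the purity of the pull-down cannot be told apart.

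None of the 10 genes passed the test. With edgeR's quasi-likelihood test over 15999 genes and a Benjamini-Hochberg adjusted p of 0.05 as the threshold, 0 of the 10 were called, 0 higher and 0 lower, and of all genes tested 0.106% were called, 0.0750% higher and 0.0313% lower. DESeq2 and limma voom also called 0 of the 10, beside 0.331% and 0.113% of all genes tested. At an unadjusted p under 0.05 there was 1 of 10, Sox11, which was higher, beside 8.78% of all genes tested, or 4.28% higher in MPTP. The log2 fold change (MPTP minus saline) was above 0 in 6 of the 10 and below 0 in 4, as it was above 0 in 50.1% of all genes. The median over the 10 genes was 0.05, and that over all genes 0.00056. Without saline 3, where 1.84% of all genes passed, the count among the 10 was again 0.

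**Figure D1:**
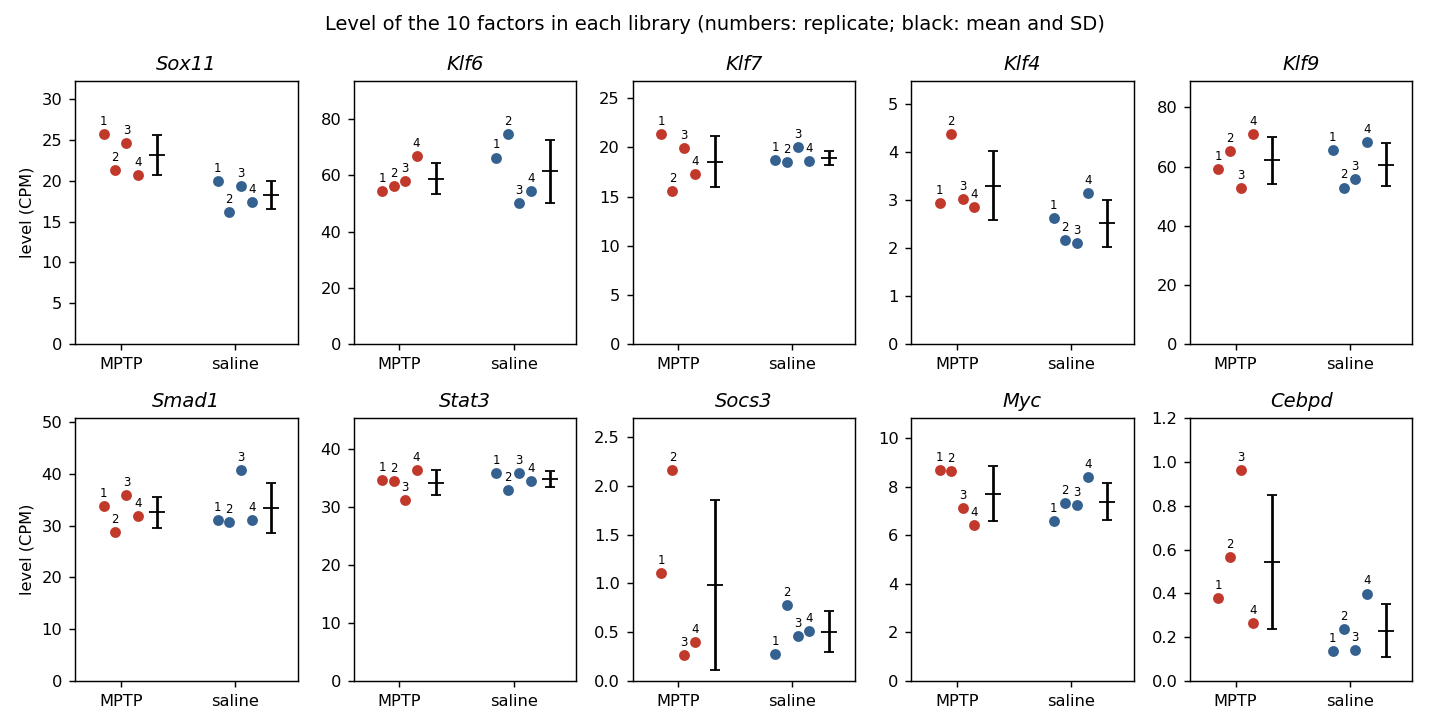
Level of each of the 10 genes in CPM (vertical axes, each from 0) in the 4 MPTP libraries (red, left) and the 4 saline libraries (blue, right), with the replicate number above each point and the mean and SD in black. In Sox11 alone the 4 MPTP libraries lie above the 4 saline libraries.

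SOX11, a high mobility group factor of the SOXC subfamily, is made by immature neurons and by injured sensory neurons. Sox11 was at 25.7, 21.3, 24.6 and 20.7 CPM in MPTP 1 to 4, against 20.0, 16.2, 19.3 and 17.4 CPM in saline 1 to 4. Every MPTP library was above every saline library, but the lowest MPTP value and the highest saline value lay close together. All 4 MPTP libraries stood above all 4 saline libraries in 2.04% of the genes tested, and the groups were apart in either direction in 4.19%. The mean and SD of 4 libraries each were 23.1 ± 2.45 CPM for MPTP and 18.2 ± 1.74 CPM for saline, a 1.27-fold difference with a 95% interval of 1.06 to 1.51 that is not adjusted for the number of genes. On the log2 scale this was 0.34 (SE 0.12), which did not pass in edgeR's quasi-likelihood test (adjusted p = 0.443), and Sox11 ranked 401 by p among all genes.

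Sox11 did not pass in any of the 16 other settings, in which its log2 fold change lay between 0.28 and 0.39 and the adjusted p between 0.153 and 0.791. The lowest of these p-values came without saline 3. When edgeR was given the mean log2 level of the astrocyte, oligodendrocyte, microglia and endothelial markers as a covariate (the non-neuronal covariate), the log2 fold change of Sox11 was 0.29 (adjusted p = 0.708). All 16 astrocyte markers and 14 of 15 oligodendrocyte markers also had a log2 fold change above 0, with medians of 0.27 and 0.22, as did 11 of 16 microglia markers, with a median of 0.27. The endothelial and mural markers went the other way, with 5 of 15 above 0 and a median of -0.08. Of the dopaminergic markers 13 of 16 were below 0, with a median of -0.16. Sox11 lies on chromosome 12 of GRCm38 (27334264 to 27342574, minus strand) as a single exon of 8311 bases, which it shares with no other annotated gene.

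Of 19 SOX genes listed, Sox11 included, 18 were tested and 0 passed, with edgeR, DESeq2 or limma voom, while 3 had an unadjusted p under 0.05 and were higher in MPTP and 1 was lower. Their median log2 fold change was 0.16, beside 0.00056 over all genes. The median includes the oligodendrocyte genes Sox8 (0.38) and Sox10 (0.20). Sox12, also a SOXC gene, had 0.33 (edgeR adjusted p = 0.538) and the progenitor gene Sox2 had 0.64 (edgeR adjusted p = 0.531). Sox2 was at 2.73 CPM in saline 3 and 1.47 to 1.96 CPM in the other saline libraries. The part of cell content in these values was not tested. The SOXC gene Sox4 was at 5.17, 5.48, 3.92 and 3.59 CPM in MPTP and 4.86, 2.83, 2.67 and 6.07 CPM in saline, so its groups overlapped fully. Sox6, a marker of nigral dopaminergic neurons, had -0.27 (edgeR adjusted p = 0.490), and without saline 3 it passed in the same direction (-0.37, edgeR adjusted p = 0.0464), as did Sox8, which was higher. In that setting 3 of 16 dopaminergic markers also passed as lower and 6 of 15 oligodendrocyte markers as higher, and their part in the Sox6 and Sox8 values was not tested. Per kilobase of exon, Sox11 ranked 5 of the 18 tested SOX genes in both groups, at 2.78 CPM per kilobase in MPTP and 2.19 in saline, below the oligodendrocyte genes Sox10 (5.47 in MPTP and 4.75 in saline) and Sox8 (5.74 in MPTP and 4.42 in saline).

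KLF6 and KLF7 are zinc finger factors that favour neurite growth, and both were at similar levels in the groups. Klf6 was at 54.4, 56.1, 57.9 and 66.8 CPM in MPTP, against 66.3, 74.7, 50.3 and 54.5 CPM in saline. The highest and the lowest value were both in saline, where saline 3 was lowest. The fold was 0.956 (95% interval 0.805 to 1.14, edgeR adjusted p = 0.909). Its log2 fold change was -0.06 with all libraries, -0.15 without saline 3 and 0.07 with the non-neuronal covariate. Klf7 was at 21.4, 15.6, 19.9 and 17.3 CPM in MPTP, against 18.7, 18.5, 20.0 and 18.6 CPM in saline. The saline libraries lay within the MPTP range, and the fold was 0.978 (95% interval 0.818 to 1.17, edgeR adjusted p = 0.962).

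Klf6 lies on chromosome 13 (5861482 to 5870394, plus strand) and Klf7 on chromosome 1 (64029447 to 64122282, minus strand). Of the exonic bases of Klf7, 3196 (39.3%) are also those of the long noncoding gene Gm26649 on the other strand. Because the cDNA kit does not mark strand, reads of these 2 genes cannot be told apart there.

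KLF4 and KLF9, which restrain axon growth, gave 1 higher mean and 1 nearly equal pair of means. Klf4 was at 2.95, 4.39, 3.02 and 2.86 CPM in MPTP, against 2.63, 2.17, 2.11 and 3.16 CPM in saline. Only MPTP 2 was above the highest saline library. The fold was 1.31 (95% interval 0.896 to 1.93), a log2 fold change of 0.39 (SE 0.26, edgeR adjusted p = 0.694), and it was 0.23 without MPTP 2. Klf9 was at 59.3, 65.2, 52.8 and 71.1 CPM in MPTP, against 65.7, 52.9, 55.9 and 68.3 CPM in saline. The groups overlapped almost completely, with a fold of 1.02 (95% interval 0.872 to 1.20, edgeR adjusted p = 0.954). Klf4 lies on chromosome 4 (55527143 to 55532466, minus strand) and Klf9 on chromosome 19 (23141226 to 23168134, plus strand), with no exonic bases shared with another gene.

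Over the whole KLF and SP family, 26 genes were in the table, 21 were tested and 0 passed with edgeR, DESeq2 or limma voom. Of the 21 genes, 13 were above 0 and 8 below 0, with a median log2 fold change of 0.06. The smallest p-values belonged to the general factor Sp1 (0.32, edgeR adjusted p = 0.506), Klf8 (0.21, edgeR adjusted p = 0.594), Klf3 (0.28, edgeR adjusted p = 0.601) and Sp9 (1.39, edgeR adjusted p = 0.645), and Sp1 alone of these had an unadjusted p under 0.05. Sp9 had 151 counts over all libraries and the lowest level per kilobase of the 21 genes in saline. Klf6 and Klf9 had the highest levels of the family per kilobase of exon, so that 1 factor known to favour and 1 known to restrain axon growth led it together. Klf6 was at 13.4 CPM per kilobase in MPTP and 14.0 in saline, and Klf9 at 12.9 in MPTP and 12.6 in saline. Klf7 (2.28 in MPTP and 2.33 in saline) and Klf4 (1.08 in MPTP and 0.826 in saline) were lower on the same scale.

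SMAD1 carries the signal of bone morphogenetic proteins (BMP) from receptor to nucleus and is needed for the growth of injured sensory axons. Smad1 was at 33.8, 28.8, 35.9 and 31.8 CPM in MPTP, against 31.0, 30.8, 40.7 and 31.0 CPM in saline. The groups overlapped, and saline 3 was the highest of all 8 libraries. The fold was 0.977 (95% interval 0.826 to 1.15, edgeR adjusted p = 0.955), and the log2 fold change was -0.03 with all libraries and 0.08 without saline 3. Smad1 lies on chromosome 8 (79338395 to 79399518, minus strand) and shares no exonic bases with another gene.

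The genes around Smad1 did not pass either. Of 10 BMP ligands, 8 receptors, 8 SMAD genes, 11 inhibitors and 10 known targets, all tested, 0 passed in each list with edgeR, DESeq2 or limma voom. The only unadjusted p under 0.05 among these lists was that of the activin receptor gene Acvr2a, at 33.5, 35.7, 28.8 and 32.4 CPM in MPTP and 23.7, 21.9, 31.0 and 23.9 CPM in saline. Saline 3 alone reached into the MPTP range. Acvr2a had a log2 fold change of 0.37 (SE 0.12, edgeR adjusted p = 0.415) and passed without saline 3 (0.49, edgeR adjusted p = 0.0341). Among receptors the type II BMP receptor Bmpr2 had -0.17 (edgeR adjusted p = 0.588), and Smad7, which inhibits the pathway and is also its target, had 0.27 (edgeR adjusted p = 0.628). The targets had a median of 0.30 with 8 of 10 above 0, with the smallest p for Smad7, Id3 (0.45, edgeR adjusted p = 0.669) and Atoh8 (0.93, edgeR adjusted p = 0.685), and the ligands a median of -0.17 with 8 of 10 below 0, beside 0.00056 over all genes. Atoh8 had 402 counts over all 8 libraries and is also known from endothelial cells.

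STAT3 is activated by cytokines of the interleukin 6 family through the shared receptor gp130 and enters the nucleus, where it induces genes that include Socs3. Stat3 was at 34.6, 34.4, 31.2 and 36.3 CPM in MPTP, against 35.8, 33.0, 35.9 and 34.4 CPM in saline. The ranges overlapped almost fully, and Stat3 had the smallest SE of the 10 genes. The fold was 0.983 (95% interval 0.859 to 1.12), a log2 fold change of -0.03 (SE 0.09, edgeR adjusted p = 0.960). Stat3 RNA does not report the phosphorylation that activates the protein, which these counts do not measure. Stat3 lies on chromosome 11 (100885098 to 100939540, minus strand) and overlaps Stat5a of the other strand in 72 exonic bases (0.756%).

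Socs3 had few counts and the widest spread among MPTP libraries. It was at 1.11, 2.16, 0.266 and 0.398 CPM in MPTP, from 91, 156, 18 and 30 counts, against 0.275, 0.778, 0.460 and 0.514 CPM in saline, from 18, 52, 29 and 27 counts. MPTP 1 and MPTP 2 were above all saline libraries, whereas MPTP 3 was below all of them and MPTP 4 lay within their range. The fold was 1.94 (95% interval 0.741 to 5.07), a log2 fold change of 0.95 (SE 0.65, edgeR adjusted p = 0.704). It was 0.23 without MPTP 2, so 1 library set most of the difference. The summed endothelial and mural markers, cells in which Socs3 is also induced, were at 26.3, 27.0, 17.7 and 21.2 CPM in MPTP and 27.8, 17.4, 34.1 and 14.97 CPM in saline. They were highest in the same 2 MPTP libraries but not in the saline library with the most Socs3, and their part in the result was not tested. Socs3 lies on chromosome 11 (117966079 to 117970047, minus strand) and shares no exonic bases with another gene.

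Since Socs3 is the textbook readout of STAT3, the promoters of the 10 genes were searched for the STAT motif TTCNNNGAA, and for the AP-1 motif TGANTCA. Both motifs read the same on either strand. RefSeq start sites on GRCm38.p6 gave a window from 250 bases before to 50 bases after the start for 8 of the 10 genes, and Myc and Cebpd were not matched. The STAT motif was present in 8.29% of 32817 such windows of all genes, and among the 8 genes in Klf9 and Socs3. The AP-1 motif was present in 7.81% of windows, and among the 8 genes in Klf9 alone, where the 2 motifs do not overlap. The windows of these 2 genes are shown because they hold the matches, which are in capitals, TTCTGCGAA in Klf9 (first base at -33 from the start) and TTCTTAGAA in Socs3 (first base at -154), with the AP-1 match TGAATCA in Klf9 (first base at -89). The Klf9 window is chr19:23140976-23141275 (plus strand) and the Socs3 window is chr11:117969317-117969616 (minus strand), each printed from 5′ to 3′ on the strand of the gene. RefSeq starts can differ from the gene positions given here, which are from GENCODE. The Socs3 and Klf7 windows lie wholly inside the genes so placed, and the Sox11 window lies wholly before its gene. Positions of matches therefore hold for the RefSeq start only.
Klf9: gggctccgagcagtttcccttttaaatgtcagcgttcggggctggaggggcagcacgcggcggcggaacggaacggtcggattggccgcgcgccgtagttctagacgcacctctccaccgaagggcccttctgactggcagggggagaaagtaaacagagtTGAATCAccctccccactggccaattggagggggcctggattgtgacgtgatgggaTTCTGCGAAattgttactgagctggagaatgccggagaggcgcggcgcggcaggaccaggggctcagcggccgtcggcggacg
Socs3: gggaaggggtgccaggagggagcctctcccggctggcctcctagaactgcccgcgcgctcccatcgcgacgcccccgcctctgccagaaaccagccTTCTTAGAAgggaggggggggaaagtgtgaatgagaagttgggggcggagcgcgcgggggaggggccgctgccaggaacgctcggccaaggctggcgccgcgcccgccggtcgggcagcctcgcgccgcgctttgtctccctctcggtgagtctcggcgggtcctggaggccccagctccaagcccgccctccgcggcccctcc
A match of letters is not a bound site, and neither gene passed the test in these libraries.

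Upstream of Stat3, the smallest p-values were those of 2 receptor genes. Of 11 receptor and Janus kinase genes 10 were tested and 0 passed with edgeR or limma voom, while 2 had an unadjusted p under 0.05 and DESeq2 called 1. That gene was Cntfr, the receptor chain for ciliary neurotrophic factor, at 33.7, 42.5, 33.9 and 37.4 CPM in MPTP and 22.5, 20.2, 26.7 and 30.0 CPM in saline. All MPTP libraries were above all saline libraries, with a mean and SD of 36.9 ± 4.10 CPM for MPTP and 24.9 ± 4.36 CPM for saline. Cntfr had a log2 fold change of 0.57 (SE 0.13, edgeR adjusted p = 0.234, DESeq2 adjusted p = 0.0164), and it passed without saline 3 (0.61, edgeR adjusted p = 0.0341). The shared receptor gp130, encoded by Il6st, was at 49.0, 37.9, 46.1 and 45.7 CPM in MPTP and 27.8, 39.7, 40.2 and 31.8 CPM in saline, where MPTP 2 fell within the saline range, and had 0.36 (SE 0.12, edgeR adjusted p = 0.440). Lifr, the leukaemia inhibitory factor receptor (0.03), and the kinase genes Jak1 (-0.09) and Jak2 (-0.0041) had values near 0, and Jak3, from 736 counts in all, had 0.82 (edgeR adjusted p = 0.578).

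The remaining STAT pathway genes had no call in edgeR, DESeq2 or limma voom. Of 7 cytokine genes 5 were tested, each with at most 537 counts over the 8 libraries, and 3 of the 5 were below 0, with a median of -0.16. Il11 had the smallest p of them, with a log2 fold change of -1.28 (edgeR adjusted p = 0.706), and Lif had 0.75 (edgeR adjusted p = 0.784). Il11 was at 0.780 CPM in saline 4 and at most 0.224 CPM in any other library. Lif was at 1.63 CPM in MPTP 3 and at most 0.566 CPM in any other library. Each changed sign in 1 of 16 other settings. All 7 STAT genes were tested, 6 of them below 0, with values between -0.16 for Stat5b and 0.10 for Stat6. Stat3 was second to Stat5b per kilobase of exon, at 3.58 CPM per kilobase in MPTP and 3.65 in saline. Of 17 inhibitor genes 12 were above 0, with a median of 0.05, and the smallest p was that of Cish, a relative of Socs3 (0.40, edgeR adjusted p = 0.506). Socs3 ranked near the bottom of them per kilobase, at 0.340 CPM per kilobase in MPTP and 0.175 in saline, and Socs5 was far higher at 16.3 in MPTP and 15.5 in saline. Of 14 known STAT3 targets tested, 10 were above 0 with a median of 0.28 and 2 had an unadjusted p under 0.05, the neuropeptide gene Vip (0.52, edgeR adjusted p = 0.483) and the interleukin 4 receptor gene Il4ra (0.77, edgeR adjusted p = 0.563). Mcl1, a survival gene of the Bcl2 family, went the other way, with every MPTP library (51.6 to 56.4 CPM) below every saline library (57.4 to 64.3 CPM) and a log2 fold change of -0.15 (edgeR adjusted p = 0.620). Gfap, a target that is also an astrocyte marker, had 0.38 (edgeR adjusted p = 0.604) and passed without saline 3 (0.66, edgeR adjusted p = 0.0341), where 4 of 16 astrocyte markers, Gfap among them, passed.

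**Figure D2:**
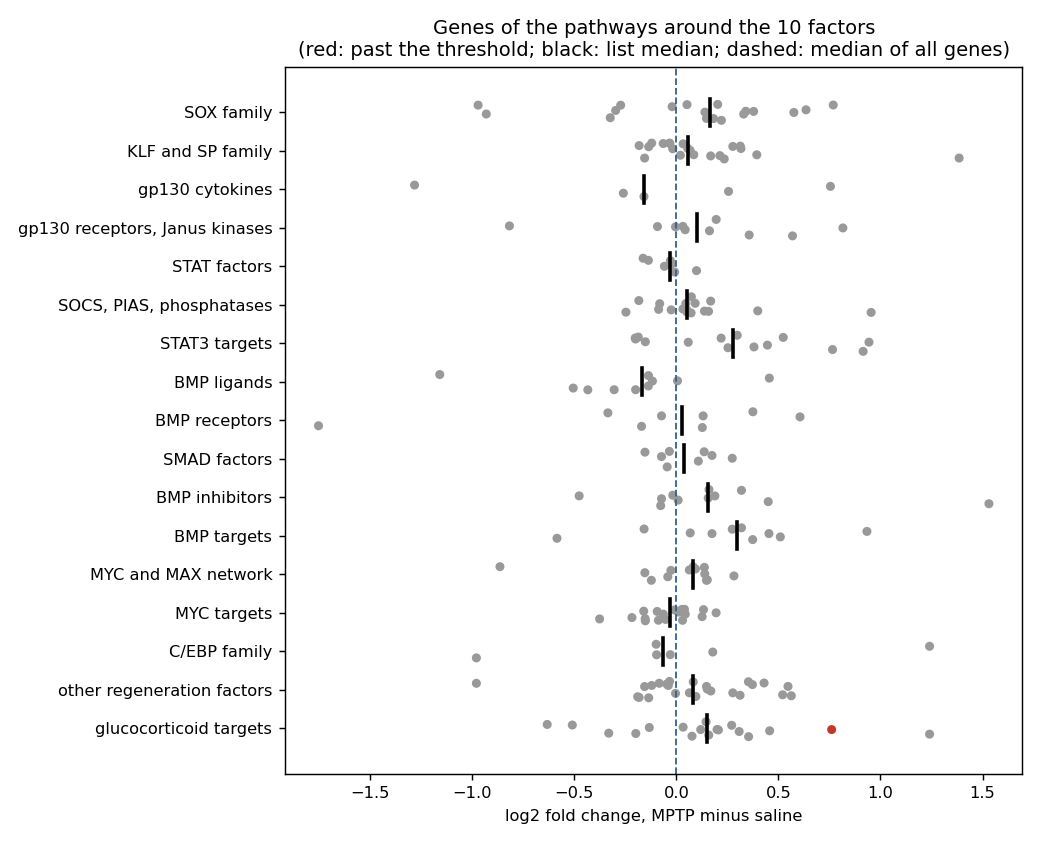
Log2 fold change (MPTP minus saline, horizontal axis) of each tested gene in the 17 lists around the 10 genes, with red for a gene past the threshold, a black bar for the median of a list and a dashed line for the median of all genes (0.00056). Dusp1 is the only red point, at 0.76.

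MYC, the growth-promoting factor that pairs with MAX, was likewise level. Myc was at 8.67, 8.64, 7.12 and 6.40 CPM in MPTP, against 6.57, 7.33, 7.22 and 8.39 CPM in saline. MPTP 1 and MPTP 2 were above all saline libraries, as for Socs3, and MPTP 4 was below all of them. The fold was 1.05 (95% interval 0.815 to 1.34, edgeR adjusted p = 0.943). Myc lies on chromosome 15 (61985391 to 61990374, plus strand) and shares no exonic bases with another gene. All 13 genes of its network were tested and 0 passed with edgeR, DESeq2 or limma voom, and 0 had an unadjusted p under 0.05. Max had the highest level of them per kilobase, at 36.3 CPM per kilobase in MPTP and 33.0 in saline, while Myc was at 2.84 in MPTP and 2.72 in saline, and Mycn and Mycl were below 1. The repressor partner gene Mnt had a log2 fold change of 0.14 (edgeR adjusted p = 0.721). Of 18 known MYC targets 0 passed with edgeR, DESeq2 or limma voom, and the median was -0.03. The nucleolar gene Nop58 had the smallest p, with every MPTP library (19.4 to 26.0 CPM) below every saline library (26.8 to 34.7 CPM) and a log2 fold change of -0.38 (SE 0.12, edgeR adjusted p = 0.415).

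C/EBP-delta is a stress-induced factor that is also prominent in glia. Cebpd had the fewest counts of the 10 genes, 31, 41, 65 and 20 in MPTP and 9, 16, 9 and 21 in saline. Its levels were 0.378, 0.568, 0.962 and 0.265 CPM in MPTP, against 0.138, 0.239, 0.143 and 0.399 CPM in saline. MPTP 2 and MPTP 3 were above all saline libraries, and MPTP 1 and MPTP 4 were below saline 4. The fold was 2.36 (95% interval 0.860 to 6.49), a log2 fold change of 1.24 (SE 0.69, edgeR adjusted p = 0.628), and it was 0.81 without MPTP 3. Cebpd lies on chromosome 16 (15887286 to 15891031, plus strand). Of its 3746 exonic bases 562 also belong to Spidr on the other strand, which had a mean and SD of 77.2 ± 7.67 CPM for MPTP and 97.2 ± 11.8 CPM for saline, far above Cebpd. Whether Spidr reads entered the Cebpd counts was not tested. Of the 6 C/EBP genes tested 0 passed with edgeR, DESeq2 or limma voom. Cebpb, which also acts in favour of regeneration, had the opposite sign to Cebpd, at 0.707, 0.928, 0.592 and 0.702 CPM in MPTP and 3.52, 0.568, 1.06 and 0.628 CPM in saline, where saline 1 stood far above the rest (log2 fold change -0.98, edgeR adjusted p = 0.640). Across 15 other settings the log2 fold change of Cebpb lay between -1.27 and -0.04. Ddit3, the stress factor CHOP, had 0.18 (edgeR adjusted p = 0.689).

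**Figure D3:**
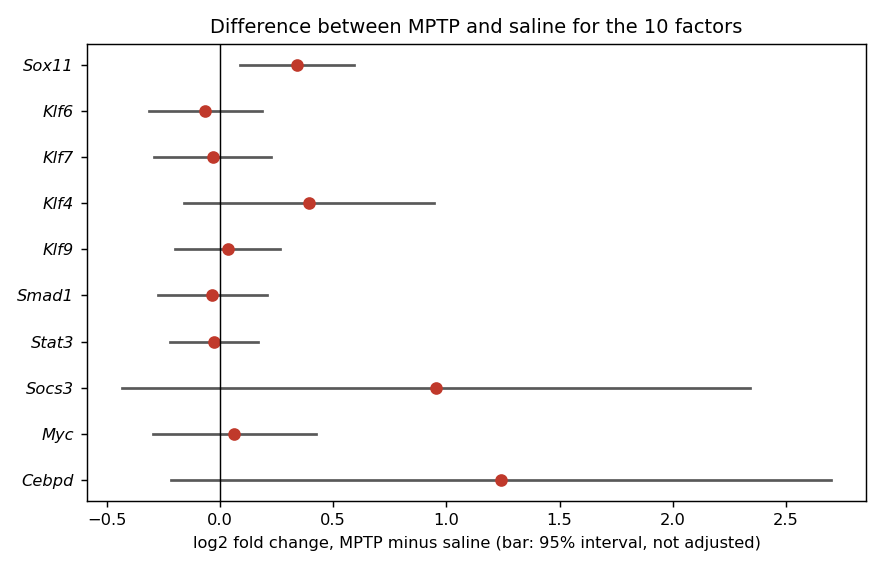
Log2 fold change (MPTP minus saline, horizontal axis) of the 10 genes in edgeR (points) with 95% intervals that are not adjusted for the number of genes (bars). The interval of Sox11 (0.09 to 0.59) lies above 0 and those of the other 9 include 0, with the widest for Socs3 and Cebpd.

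The precision differed among the genes. For Klf6, Klf7, Klf9, Smad1, Stat3 and Myc the intervals were narrow, reaching no lower than a fold of 0.805 (Klf6) and no higher than 1.34 (Myc). For Klf4, Socs3 and Cebpd, which had the lowest levels, they extended up to folds of 1.93, 5.07 and 6.49. Sox11 had an interval of 1.06 to 1.51. The coefficient of variation among MPTP libraries was 6.22% for Stat3 and 88.2% for Socs3, and among saline libraries it was 3.95% for Stat3 and 41.0% for Socs3.

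Levels were compared between genes only per kilobase of exon. Klf6 and Klf9 led in both groups, and their ranges overlapped. Smad1 followed at 5.21 ± 0.482 CPM per kilobase in MPTP and 5.33 ± 0.778 in saline, and then Stat3 at 3.58 ± 0.223 in MPTP and 3.65 ± 0.144 in saline (mean and SD of 4 libraries), with no overlap between these neighbours. Myc, Sox11 and Klf7 came next. Their order was Myc, Sox11, Klf7 in MPTP and Myc, Klf7, Sox11 in saline, and each overlapped its neighbour, so this order is not resolved by 4 libraries. Klf4 lay below them without overlap, and Socs3 (0.340 ± 0.300 in MPTP and 0.175 ± 0.0718 in saline) and Cebpd (0.145 ± 0.0817 in MPTP and 0.0614 ± 0.0327 in saline) were lowest and overlapped each other. In saline, Klf6 stood above 78.7% of 15240 tested genes with a known length, Stat3 above 49.3%, Sox11 above 38.4% and Cebpd above 2.30%.

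**Figure D4:**
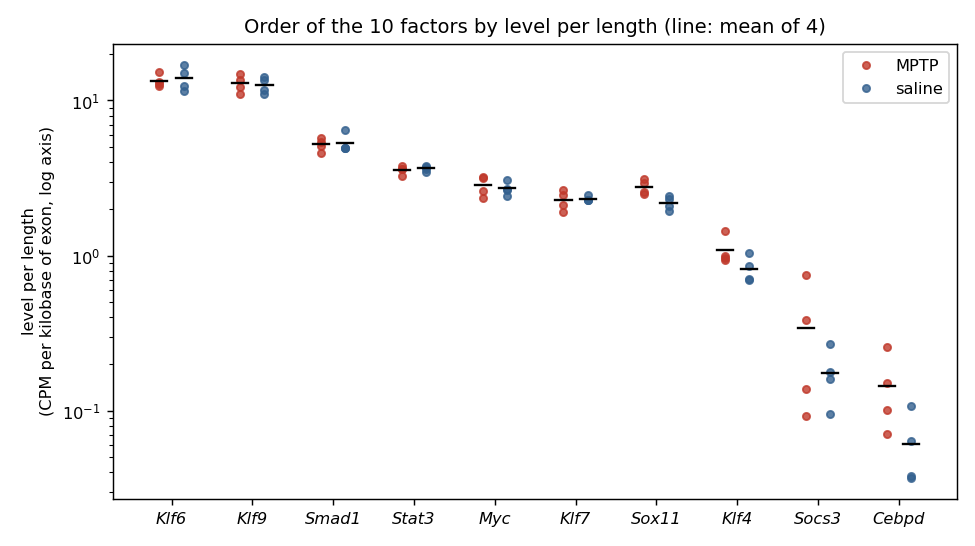
Level per length (CPM per kilobase of exon, log axis) of the 10 genes in the 4 MPTP libraries (red, left of each pair) and the 4 saline libraries (blue), with black lines at the means, in the order of the saline means. Klf6 and Klf9 have means of 12.6 to 14.0 CPM per kilobase in both groups, and Socs3 and Cebpd below 1.

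Factors and chromatin proteins from other studies of axon regeneration gave no call in edgeR or limma voom among 25 tested, with 4 higher at an unadjusted p under 0.05 and a median of 0.08. The histone demethylase gene Kdm6b was at 238, 175, 153 and 231 CPM in MPTP and 129, 101, 149 and 161 CPM in saline. MPTP 3 lay below the highest saline library, and the log2 fold change was 0.56 (SE 0.15, edgeR adjusted p = 0.357), which DESeq2 called (0.56, DESeq2 adjusted p = 0.0440). The bZIP repressor gene Nfil3, known from injured sensory neurons, was above saline in all 4 MPTP libraries (0.52, edgeR adjusted p = 0.488), and the demethylase gene Tet3 (0.37, edgeR adjusted p = 0.491) and Nfatc3 (0.35, edgeR adjusted p = 0.553) followed.

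Klf9 and Cebpd are also known targets of the glucocorticoid receptor. Of 18 such targets, all tested, 1 rose, the phosphatase gene Dusp1 with a mean and SD of 39.4 ± 4.06 CPM for MPTP and 23.3 ± 5.37 CPM for saline (log2 fold change 0.76, edgeR adjusted p = 0.045). Its call ended when MPTP 1, MPTP 2, MPTP 4, saline 1 or saline 2 was left out and with a mean CPM of at least 5 as the filter. Dusp1 is induced by growth factor and stress signals as well. The clock gene Per1 had 0.35 (edgeR adjusted p = 0.472), Sgk1 0.31 (edgeR adjusted p = 0.594) and the zinc finger gene Zbtb16 -0.63 (edgeR adjusted p = 0.389), and Zbtb16 passed with the non-neuronal covariate (-0.85, edgeR adjusted p = 0.0148). The median of the list was 0.15.

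Over all 17 lists, 195 genes other than the 10 were tested. edgeR called 1 of them, DESeq2 3 and limma voom 1, beside 0.106%, 0.331% and 0.113% of all genes tested. Without saline 3 edgeR called 6 (Sox6, Sox8, Cntfr, Gfap, Acvr2a and Dusp1), beside 1.84% of all genes. With the non-neuronal covariate edgeR called Dusp1 and Zbtb16, and not Cntfr, Acvr2a or Kdm6b, beside 0.106% of all genes. At an unadjusted p under 0.05 there were 15 higher and 3 lower, 9.23% in all, beside 685 higher and 720 lower among all genes, 8.78%. Log2 fold changes were above 0 in 113 and below 0 in 82, beside 50.1% above 0 among all genes. All MPTP libraries were above all saline libraries in 4 of the 195, with Cntfr, Nfil3 and Dusp1 among them. They were below in 2, Mcl1 and Nop58. Among all genes tested 2.04% were above in this way, and 4.19% were apart in either direction.

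The library pattern of 2 genes, those with the smallest p, was compared with that of 12158 or 12159 other genes. The genes most like Sox11 over the 8 libraries in log2 CPM were Igdcc4 (Pearson r = 0.968), Ccdc61 (0.954), Tmem2 (0.942) and Septin10 (0.938). None of them passed the test, with log2 fold changes between 0.17 and 0.32. Those most like Cebpd were Brd1 (0.963), Stx1a (0.928), Stt3a (0.924) and Tmem238 (0.919), with log2 fold changes between 0.096 and 0.32. Cebpd itself, with 9 to 65 counts per library, was below the mean log2 CPM of 1 asked of the compared genes. These correlations describe 8 libraries that differ in depth and in marker content, whose part in them was not tested, and they carry no test.

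**Figure D5:**
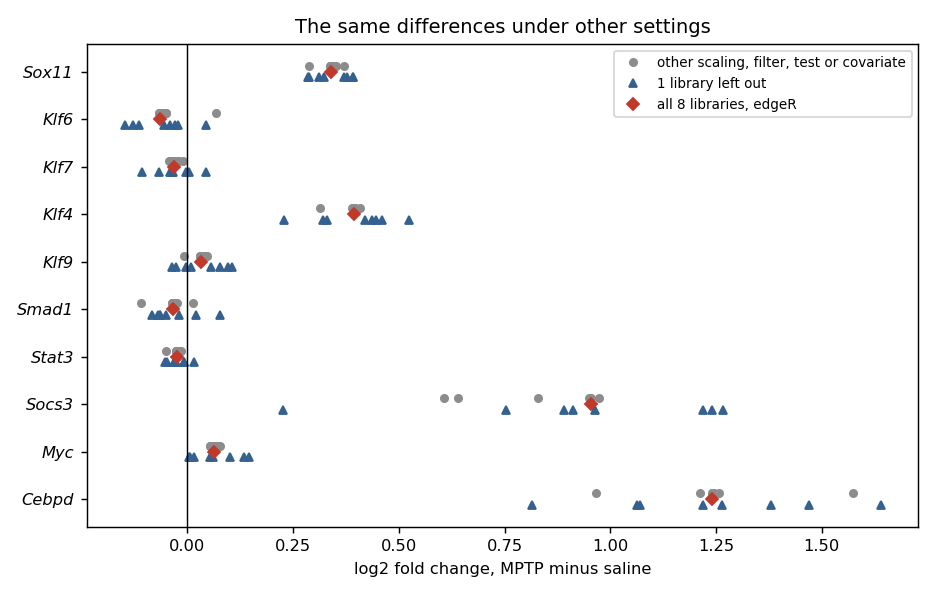
Log2 fold change (MPTP minus saline) of the 10 genes in the edgeR fit of all 8 libraries (red diamonds), with another scaling, filter, test or covariate (grey circles) and with 1 library left out (blue triangles). Sox11 stays between 0.28 and 0.39, and Socs3 and Cebpd spread over the widest ranges.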

How the data were processed

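RNA from TRAP was amplified from nanogram amounts with a cDNA kit (of a type that does not mark strand) and single-end reads were taken, with libraries multiplexed in pairs, per the labels' protocols. The protocol covers separate or joint samples of substantia nigra and ventral tegmental area and does not say which applies here. The labels give midbrain, whereas the name of the deposited count table carries the letters SN. The authors deposited raw counts per gene for 8 libraries. The tool and build listed are TopHat2 2.0.8 and mm10, per the submitters' processing notes. How genes were counted, and with which annotation and strand setting, is not given in the sources used here. Library columns were matched to samples by title. Entrez identifiers were used to restore 27 symbols that appeared as dates, and 90 genes without a symbol held 0.0505% to 0.0560% of a library's counts.

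Counts were analysed with edgeR 4.0.16 in R 4.3.3 (TMM scaling, filterByExpr by group, robust quasi-likelihood F-test, no covariate, 15999 genes tested, all 10 genes among them). A gene was called at 0.05 after Benjamini-Hochberg adjustment of p across the whole table tested. SE was obtained as the absolute log2 fold change over the root of F. CPM use the TMM-scaled library size. Log2 CPM used a prior count of 2. Exon lengths and positions are from GENCODE vM21 (GRCm38, the same coordinates as mm10), and promoter windows are RefSeq's for GRCm38.p6. Other settings used DESeq2 1.42.0 and limma 3.58.1 voom with sample weights, and the gene test was tested on simulated data. Intervals are for the difference between the groups, are built from this SE and rest on the variation among these libraries.

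Replicates are numbered in the labels, with no word on whether they are separate animals. The p-values therefore reflect only the variation among these libraries, which may be technical. No pair of libraries in a group agreed within sampling noise. Reads carry no molecular identifiers. Libraries of the same number did not deviate together (correlations between -0.12 and 0.04), so no pairing was used. The 10 genes and the pathway lists were chosen with earlier results of these data known. Genes named from a list are up to 4 with the smallest p, and the most similar genes are the 4 with the highest correlation for each of the 2 genes with the smallest p, passing over predicted and microRNA genes and those with a mean log2 CPM under 1. Sox4, Sox8, Sox10, Spidr, Lifr, Jak1, Jak2, Socs5, Mycn and Mycl fall outside this rule and were chosen once their values were known.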

Additional observations from a re-analysis of the deposited data

Results flagged for a closer look

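The gap of the highest or lowest library to its nearest neighbour was checked in 30 sets of 4 libraries, for the 10 genes and 5 marker scores in each group, and chance alone would set about 5% of such sets apart. Klf4 in MPTP 2 (4.39 CPM) stood apart from the other MPTP libraries (2.86 to 3.02 CPM). Klf7 in saline 3 (20.0 CPM) stood apart from the other saline libraries (18.5 to 18.7 CPM), although the MPTP libraries spanned a wider range. Smad1 in saline 3 (40.7 CPM) stood apart from the other saline libraries (30.8 to 31.0 CPM). The dopaminergic marker score, the mean log2 CPM of the 16 markers, was 7.79 in saline 3 and 8.34 to 8.42 in the other saline libraries. The 3 values of saline 3 come from the library with the highest non-neuronal score (3.09, against 2.63 to 2.97 in MPTP and 2.10 to 2.52 in the other saline libraries), and the part of cell content in them was not tested.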

How the results depend on the processing

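Of the 10 genes, all were tested in 15 of the 16 alternatives and 7 with a mean CPM of at least 5, which removed Klf4, Socs3 and Cebpd, and 0 passed in each, and leaving out each library gave 0 to 0 of them. The number of genes past the threshold over all genes was 17 with all 8 libraries. It was 53 with DESeq2 and 11 with a mean CPM of at least 5, where fewer genes were tested. Leaving out 1 library gave 8 to 297 genes, with 297 without saline 3, 10 without saline 1 and 8 without MPTP 4. With the replicate number as a block (replicate block) it was 14, and the block gave 0 of the 10 genes and 0.34 for Sox11. Signs were kept in each alternative that tested them for Sox11, Klf4, Socs3, Myc and Cebpd, and changed in 2 of 16 for Klf6, 2 for Klf7, 4 for Klf9, 3 for Smad1 and 1 for Stat3. The log2 fold change of Socs3 ranged from 0.23 to 1.27 and that of Cebpd from 0.81 to 1.64. Counts per library were lowest for Cebpd (9 to 65) and Socs3 (18 to 156), and the spread of Socs3 among MPTP libraries was 88.2% of its mean.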
